A study of Mus musculus with 9 samples.

Results

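Activated CD8 T cells of the clone R7-II, the clone of lowest affinity for its peptide, were compared with those of R7-III, the clone of intermediate affinity. The comparison used 6 of the 9 libraries of activated cells, 3 of R7-II and 3 of R7-III, and the 3 libraries of R7-I, the clone of highest affinity, served to ask which differences set R7-III apart and which set R7-II apart. Members were chosen by the clone named in the sample labels, and every gene whose TPM (a level corrected for transcript length and library size) exceeded 1 in at least 1 of the 9 libraries was tested, which left 11330 of 24060 genes.

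The clones came from transnuclear mice, made by transferring the nucleus of a single CD8 T cell into an egg, so that each line carries the rearranged receptor of 1 clone. All 3 receptors see the same peptide of ROP7, a protein of the parasite Toxoplasma gondii, on the class I molecule H-2Ld. The mice were on a Rag2 proficient BALB/c background, on which other lymphocytes are present in the spleen. Splenocytes of each line were cultured overnight with peptide at 10 µM and IL-2 at 10 ng/ml, and cells positive for CD3, CD8 and the H-2Ld-Rop7 tetramer were then sorted to a purity of 90 to 95%. The labels rank peptide affinity as R7-I above R7-III above R7-II, and self-reactivity, read from CD5 and Nur77, as R7-III above R7-I above R7-II. A clone is therefore 1 receptor and 1 mouse line, and affinity, self-reactivity and line cannot be told apart between any pair of clones. The labels call the libraries biological replicates without saying whether they came from separate animals, so p-values measure the spread between these libraries. No age was given in the sources used here.

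A naive CD8 T cell that meets its peptide leaves quiescence. Signalling through the receptor induces early transcription factors, then growth, cytokine and cytotoxic genes, and finally the genes for DNA replication and mitosis, while genes that keep the cell circulating, such as Klf2 and S1pr1, are switched off. E2F factors are known to drive the replication genes, whereas many mitotic genes carry a cell cycle homology region in their promoters.

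The sorted cells carried the markers of CD8 T cells. Cd8a lay between 393 and 452 TPM in R7-II and between 372 and 380 TPM in R7-III, and Cd4 between 0.95 and 1.0 TPM and between 0.29 and 0.53 TPM. The log2 values of libraries of the same clone correlated across genes with r between 0.992 and 0.997. Markers of other spleen cells were higher in the R7-II libraries. The summed level of 13 B cell genes was 146 to 208 TPM in R7-II compared with 71.1 to 91.9 TPM in R7-III, and 10 of the 11 that were tested passed as higher in R7-II. Most of that sum was Pou2af1, which activated T cells also express (100 to 125 and 59.1 to 79.6 TPM), while Ms4a1, which encodes the B cell protein CD20, lay between 3.37 and 8.53 TPM in R7-II and between 0.66 and 1.03 TPM in R7-III. The sum of 9 MHC class II genes was 133 to 203 TPM against 28.1 to 32.4 TPM, with all 9 higher in R7-II, and that of 19 myeloid genes 137 to 226 TPM against 90.8 to 98.4 TPM, with 12 of 14 tested higher in R7-II. Of 9 CD8 T cell genes 8 were also higher in R7-II, with sums of 3052 to 3187 TPM and 2232 to 2367 TPM. After median-of-ratios scaling 8 myeloid and 6 CD8 T cell genes were higher, and with 1 library left out at least 8 and 7. Of all genes tested 35.6% passed as higher in R7-II and 18% as lower. The erythroid sum was 2.14 to 22.2 TPM against 14.5 to 42.0 TPM with none of 6 past the threshold, the CD4 T cell sum 27.3 to 33.6 TPM against 64.7 to 79.2 TPM with 1 of 3 higher and 2 lower, and the NK cell sum 2.66 to 6.11 TPM against 1.49 to 2.96 TPM with 1 of 2 higher. The 2 lower genes of the CD4 list were Tnfrsf4 and Cd40lg, both also induced in activated CD8 T cells. C1qb of the myeloid list and Klra1, Klra4 and Klra8 of the NK list were at 0 in all 6 libraries. The higher gene of the CD4 list did not pass without R7-II replicate 1 or 3 or any R7-III replicate, nor that of the NK list without R7-III replicate 1, and 1 erythroid gene passed as lower without R7-II replicate 3 and 2 without R7-III replicate 3. The part of these cells in the results was not tested, and in bulk samples fewer cells of a type and less RNA per cell cannot be told apart.

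At an adjusted p of 0.01, R7-II exceeded R7-III in 4038 (35.6%) of the 11330 genes and lay below it in 2039 (18%), by limma on log2(TPM + 1) with the Benjamini-Hochberg adjustment taken across the whole table. More than 2-fold differences were found upwards for 541 genes (4.77%) and downwards for 318 genes (2.81%). Fold changes here and below are R7-II minus R7-III on the log2(TPM + 1) scale with their standard error, unless another pair is named, and this scale understates the change of genes at a few TPM. The split between higher and lower genes depended on scaling. Over all genes tested the median log2 fold change was 0.12, and with libraries scaled by median-of-ratios factors it was 0.00 and 47.9% instead of 66.4% of the genes past the threshold were higher in R7-II. With that scaling 2896 of all genes were higher in R7-II and 3150 lower. The counts of each gene list below are therefore to be read against a median shift of 0.12, and against the shares of 35.6% higher and 18% lower. The lists were written with earlier results of these data known, so their counts are descriptions. An exact two-sided permutation test of 3 against 3 libraries cannot give a p below 0.1, so single genes rest on the limma fit alone.

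**Figure D1:**
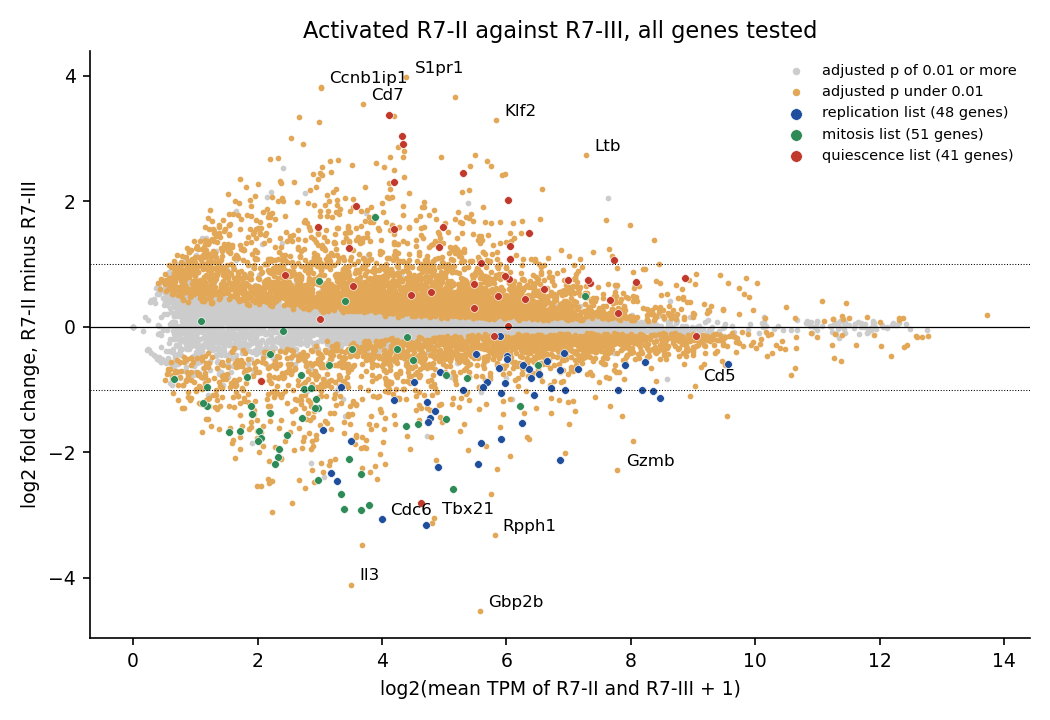
Log2 fold change of R7-II minus R7-III (vertical axis) against log2 of the mean TPM of both clones plus 1 (horizontal axis) for the 11330 genes tested, with genes past an adjusted p of 0.01 in orange and the dotted lines at 2-fold. The replication list (48 genes) and mitosis list (51 genes) lie mostly below 0 and the quiescence list (41 genes) mostly above.

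Genes for the machinery of DNA replication were lower in R7-II with 1 exception. Of 48 replication genes 47 were lower in R7-II and none was higher, against 18% and 35.6% of all genes tested. The median log2 fold change was -1.01, and 25 were lower by more than 2-fold. In all 48 every R7-II library lay below every R7-III library, against 2748 of all 11330 genes tested. The remaining gene, Gins4, differed by -0.15 (adjusted p = 0.011). Clone means followed the order R7-III above R7-I above R7-II in 47 of the 48 genes (97.9%), against 1961 genes (17.3%) of all genes tested. Thus 43 of the 48 were also lower in R7-II than in R7-I (15.5% of all genes), with a median of -0.59, and 38 were higher in R7-III than in R7-I (6.96% of all genes), with a median of 0.44.

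Promoters are shown for 4 of these genes to illustrate the short motifs searched for in the replication and mitosis lists, and were taken from the members that hold a match and had the lowest fold changes. The windows run from 250 bases before to 50 bases after the start in the RefSeq annotation of GRCm38.p6, are written 5′ to 3′ on the strand of the gene, and have the motif in capitals, on either strand. The E2F motif was searched as TTTCCCGC or TTTGGCGC in Cdc6 (chr11:98907901-98908200, plus strand) and Mcm3 (chr1:20820263-20820562, minus strand), and the cell cycle homology region as TTTGAA in Cdk1 (chr10:69352863-69353162, minus strand) and Top2a (chr11:99024140-99024439, minus strand).
Cdc6: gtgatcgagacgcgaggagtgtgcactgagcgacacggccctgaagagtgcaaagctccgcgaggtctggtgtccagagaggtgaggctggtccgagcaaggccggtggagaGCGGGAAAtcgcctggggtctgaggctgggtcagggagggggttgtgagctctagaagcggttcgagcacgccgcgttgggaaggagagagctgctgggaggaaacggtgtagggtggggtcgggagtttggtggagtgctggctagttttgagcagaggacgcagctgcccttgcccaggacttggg
Mcm3: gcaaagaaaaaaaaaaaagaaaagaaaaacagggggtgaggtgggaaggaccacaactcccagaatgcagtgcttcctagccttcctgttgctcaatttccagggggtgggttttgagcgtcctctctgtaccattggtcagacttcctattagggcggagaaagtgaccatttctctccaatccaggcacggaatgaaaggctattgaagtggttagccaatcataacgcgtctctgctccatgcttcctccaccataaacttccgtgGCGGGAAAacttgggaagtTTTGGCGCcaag
Cdk1: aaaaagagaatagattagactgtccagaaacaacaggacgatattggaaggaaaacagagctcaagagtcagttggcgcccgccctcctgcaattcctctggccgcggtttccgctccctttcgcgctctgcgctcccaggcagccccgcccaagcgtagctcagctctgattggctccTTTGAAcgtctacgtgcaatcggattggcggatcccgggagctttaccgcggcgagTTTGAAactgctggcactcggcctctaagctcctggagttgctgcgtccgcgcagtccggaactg
Top2a: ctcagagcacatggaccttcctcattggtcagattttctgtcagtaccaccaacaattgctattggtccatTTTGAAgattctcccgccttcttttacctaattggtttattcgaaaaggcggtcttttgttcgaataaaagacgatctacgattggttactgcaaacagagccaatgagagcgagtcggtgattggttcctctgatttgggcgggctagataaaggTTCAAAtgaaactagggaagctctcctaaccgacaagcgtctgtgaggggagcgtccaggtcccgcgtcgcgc

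Windows were found for 37 of the 48 replication genes and 43 of the 51 mitosis genes. The E2F letters were present in 13 of the 37 replication genes (35.1%) and in 2 of the 43 mitosis genes (4.65%), compared with 3.61% of the genes tested that had a window and 1.8% of all genes with a promoter window. The letters TTTGAA were present in 6 replication genes (16.2%) and 30 mitosis genes (69.8%), compared with 14.1% of the genes tested and 20.2% of all. The E-box CACGTG, which Myc can bind, was present in 16.2% and 4.65% of these lists, in 5 of 37 growth genes (13.5%) and in 12.4% of the genes tested. A match describes the window and is not evidence of binding.

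Cdc6, which loads the replicative helicase onto origins, was measured at 1.68, 3.06 and 2.69 TPM in R7-II and at 26.8, 26.2 and 29.9 TPM in R7-III. The R7-I libraries lay between them, at 10.9, 14.2 and 12 TPM. The clones did not overlap, and the difference between R7-II and R7-III was -3.06 ± 0.14 (adjusted p = 8.6e-08). Mcm10, a helicase cofactor, had the largest difference of the list (-3.15 ± 0.21), at 2.49, 5.66 and 5.4 TPM against 45.3, 43.7 and 49.3 TPM. Clspn, an adaptor of the replication checkpoint, was lower by -2.46 ± 0.14, and Uhrf1, which brings the maintenance methyltransferase to newly made DNA, by -2.12 ± 0.08. Abundant members differed too. Mcm3, a subunit of the helicase itself, was at 196, 238 and 236 TPM in R7-II and at 483, 483 and 496 TPM in R7-III (-1.13 ± 0.06). Pcna, the sliding clamp, was at 592, 614 and 598 TPM against 902, 887 and 923 TPM (-0.59 ± 0.03).

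Nucleotide synthesis followed the same direction with smaller differences. Of 28 genes 25 were lower and 2 higher in R7-II, against 18% and 35.6% of all genes tested. The median was -0.36, and 4 of the lower genes differed by more than 2-fold. Rrm2, the regulated subunit of ribonucleotide reductase, was at 3.87, 5.33 and 5.02 TPM in R7-II compared with 49, 44.6 and 53.8 TPM in R7-III (-3.13 ± 0.11). The 2 genes in the other direction were Samhd1, which degrades deoxynucleotides (1.72 ± 0.10, at 114, 157 and 156 TPM against 40.4, 41.5 and 44.2 TPM), and Impdh1 (0.21 ± 0.04), which no longer passed after median-of-ratios scaling (adjusted p = 0.081).

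Mitotic genes had the lowest median of all lists, -1.26. In R7-II 43 of 51 were lower and 4 higher, against 18% and 35.6% of all genes tested. Of the lower genes 30 differed by more than 2-fold. Cdk1, the kinase that drives entry into mitosis, was at 1.04, 3.17 and 2.05 TPM in R7-II, at 21, 20.9 and 22.3 TPM in R7-III and 9.29, 11 and 10.4 TPM in R7-I. All R7-II libraries lay below all others, and the difference was -2.92 ± 0.20. Ccna2, the cyclin of S phase and early mitosis, was at 1.36, 1.55 and 1.49 TPM against 17.3, 15.2 and 19.8 TPM (-2.90 ± 0.09). Top2a, which untangles sister chromatids, differed by -2.58 ± 0.10, and Birc5, a subunit of the chromosomal passenger complex, by -2.84 ± 0.16. Of the 51 genes 35 were higher in R7-III than in R7-I and none was lower. The 4 genes higher in R7-II were Pttg1, the securin (1.76 ± 0.26), Cdc25b (0.72 ± 0.16), Smc4 (0.49 ± 0.08) and Cenpa (0.41 ± 0.11). Pttg1 was at 13.7, 35.5 and 17.2 TPM in R7-II compared with 5.85, 5.64 and 4.54 TPM in R7-III. Without R7-III replicate 1 only 2 genes of the list passed as higher.

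The regulators of the G1 phase moved in both directions, with 14 of 24 lower and 5 higher in R7-II. Of all genes tested 18% were lower and 35.6% higher. Ccne1 and Ccne2, the cyclins that start S phase, were lower by -1.66 ± 0.09 and -2.14 ± 0.11. E2f1 was at 8.8, 14.1 and 12.6 TPM in R7-II compared with 39.8, 39.2 and 45.8 TPM in R7-III (-1.75 ± 0.13). Higher in R7-II were the inhibitors Cdkn1a, which encodes p21 (144, 136 and 105 TPM against 63.5, 62.8 and 66.1 TPM, 0.98 ± 0.14), and Cdkn1b, which encodes p27 (0.81 ± 0.09), together with the retinoblastoma relative Rbl2 (1.04 ± 0.10). The D cyclins and their kinase differed less, with Ccnd2 at -0.41 ± 0.07 and Cdk4 at -0.42 ± 0.03.

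Of 68 histone symbols 51 were tested, and 23 were lower and 3 higher in R7-II, while 25 did not pass, with a median of -0.89. The shares over all genes tested were 18% lower and 35.6% higher. Against R7-I 9 were higher and 9 lower in R7-II, with a median of -0.05. Their summed level was 88.2 to 110 TPM in R7-II, 202 to 236 TPM in R7-III and 108 to 125 TPM in R7-I. Most histone transcripts lack a poly(A) tail and the genes share much of their sequence, and the libraries were selected for poly(A), so values of single histone genes are uncertain.

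**Figure D2:**
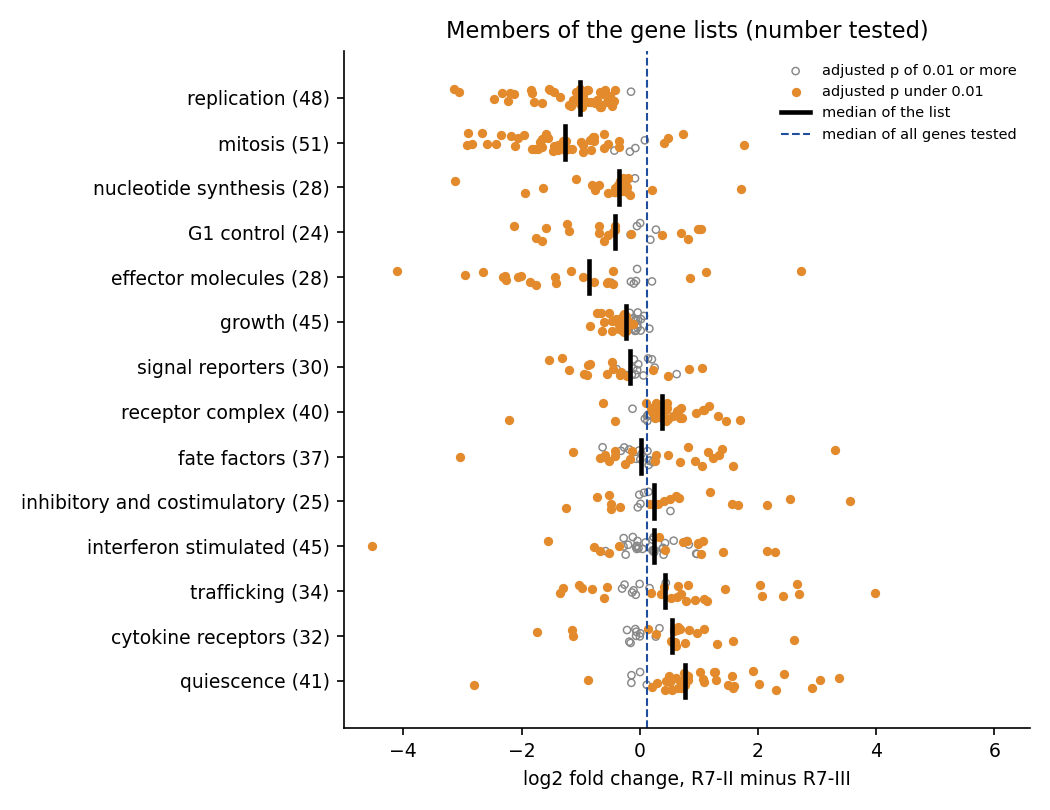
Log2 fold change of R7-II minus R7-III (horizontal axis) of each gene tested in 14 gene lists, filled where the adjusted p was under 0.01, with the median of each list as a black bar and the median of all genes tested as a dashed line at 0.12. The medians run from -1.26 for mitosis and -1.01 for replication to 0.77 for quiescence.

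Genes for cytokines, chemokines and cytotoxic proteins were mostly lower in R7-II. Of 28 effector genes that passed the filter on low values 19 were lower and 3 higher, against 18% and 35.6% of all genes tested. The median was -0.86, and 13 were lower by more than 2-fold. The largest difference was that of Il3, a haematopoietic growth factor made by activated T cells, which was near 0 in R7-II (0.24, 0.12 and 0.41 TPM) and at 20.5, 20.1 and 21 TPM in R7-III (-4.10 ± 0.09, adjusted p = 1.3e-09). Ccl1, a chemokine ligand of CCR8, was at 0, 0.21 and 0 TPM in R7-II, at 7.73, 7.76 and 6.37 TPM in R7-III and 0.53, 0.59 and 0.46 TPM in R7-I. It was thus higher in R7-III than in both other clones, by 2.95 ± 0.12 over R7-II and by 2.44 over R7-I. Csf2, another growth factor, was at 0.19, 0.5 and 0.23 TPM against 3.88, 3.59 and 3.58 TPM. Tnfsf11, the ligand RANKL, differed by -2.66 ± 0.09.

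Gzmb, the main granzyme of cytotoxic cells, was at 56.5, 79.6 and 85.2 TPM in R7-II, at 410, 426 and 261 TPM in R7-III and 813, 785 and 496 TPM in R7-I. R7-II was lowest without overlap (-2.28 ± 0.23), while R7-III and R7-I did not overlap but missed the threshold against each other (adjusted p = 0.018). Ifng, which encodes interferon gamma, was at 25.2, 36.9 and 47.5 TPM against 121, 117 and 128 TPM (-1.76 ± 0.17), and Il2 at 35.8, 58.1 and 52.3 TPM against 186, 176 and 226 TPM (-2.01 ± 0.15). Serpinb9, which protects cytotoxic cells from their own granzyme B, differed by -2.27 ± 0.13. The chemokine genes Ccl3, Ccl4 and Xcl1 were abundant in every clone and differed by -1.41 ± 0.06, -0.77 ± 0.04 and -0.55 ± 0.05. Prf1, which encodes perforin, differed by -0.54 ± 0.13 and lost its call in 7 of 18 alternative settings, with adjusted p up to 0.014. Tnf differed by -0.15 (adjusted p = 0.10). The 3 genes higher in R7-II were Ltb, for lymphotoxin beta (285, 219 and 306 TPM against 36.4, 35.6 and 47.2 TPM, 2.73 ± 0.13), Gzmm (1.11 ± 0.15) and Gzma (0.86 ± 0.19), the last at 0.69, 1.41 and 1.06 TPM against 0.17, 0.21 and 0 TPM.

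**Figure D3:**
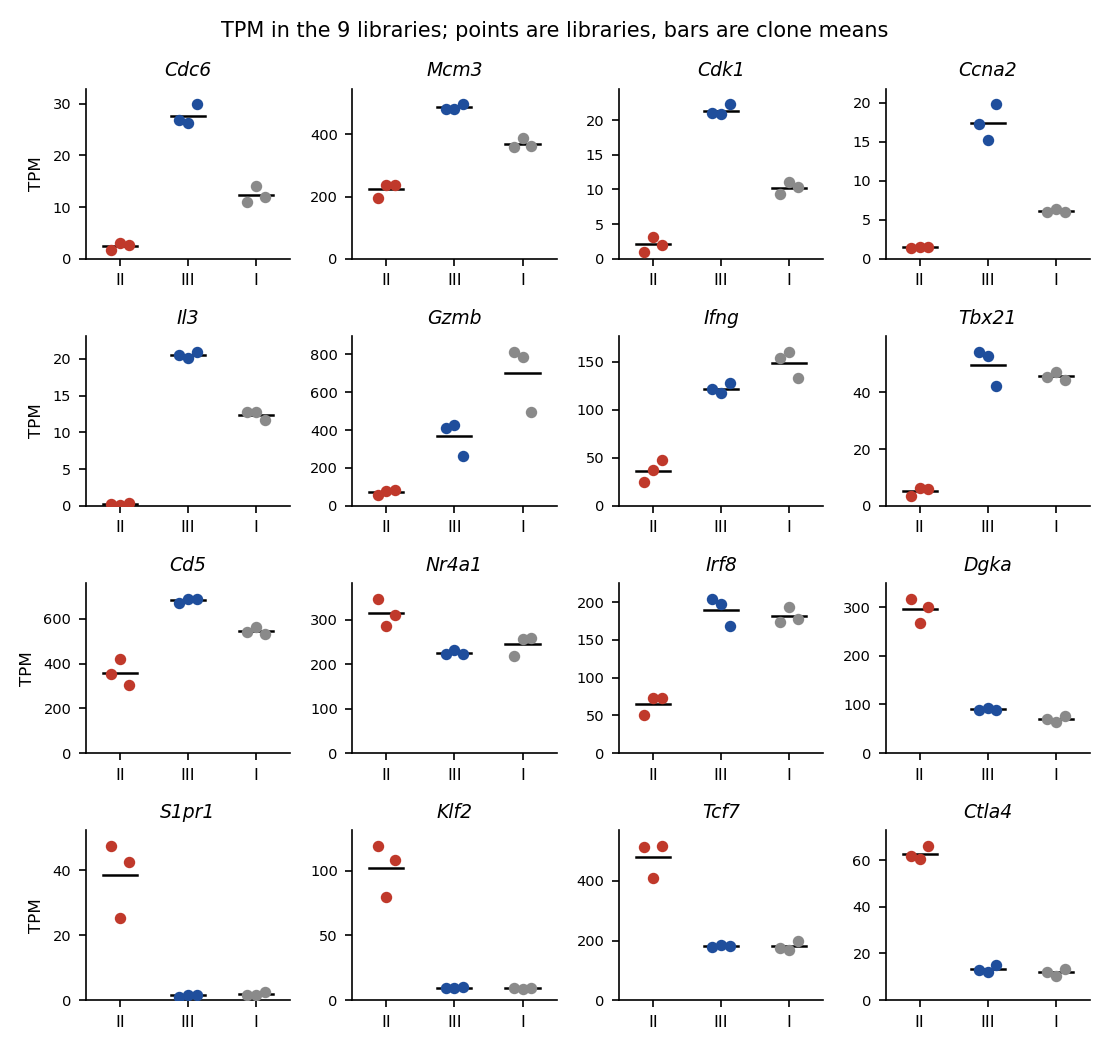
TPM (vertical axis, from 0) of 16 genes in the 3 libraries of R7-II (red), R7-III (blue) and R7-I (grey), with the clone mean as a bar. R7-II and R7-III did not overlap in any of the 16 genes, and in Cdc6, Mcm3, Cdk1, Ccna2, Il3 and Cd5 the R7-I libraries lay between both clones.

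Genes that report the strength of the receptor signal did not all point the same way. Of 30 signal reporters 13 were lower and 4 higher in R7-II, with a median of -0.17, against 18% lower and 35.6% higher of all genes tested. Cd5, an inhibitory coreceptor whose level follows self-reactivity, was at 354, 423 and 304 TPM in R7-II, at 673, 689 and 691 TPM in R7-III and 541, 564 and 531 TPM in R7-I. R7-II was lower than R7-III by -0.94 ± 0.09 without overlap. Nr4a1, which encodes Nur77, an immediate early target of the receptor, had the other order, at 348, 285 and 312 TPM in R7-II against 222, 231 and 223 TPM in R7-III (0.48 ± 0.07). Egr1 was also higher in R7-II (0.84 ± 0.05), while Nr4a3 was lower (-0.31 ± 0.06). Cd69, an early activation marker, was at 276, 291 and 293 TPM against 274, 266 and 283 TPM, with overlapping libraries and a 95% interval of the difference that includes 0 (adjusted p = 0.20). Irf8 was at 50.5, 72.4 and 73.1 TPM against 205, 197 and 168 TPM (-1.54 ± 0.13). Tnfrsf4, which encodes the costimulatory receptor OX40, and Cd200 were lower by -1.31 ± 0.10 and -1.19 ± 0.07. Irf4, whose induction is graded by signal, differed by -0.21 ± 0.05 and lost its call after quantile normalization (adjusted p = 0.040), among 4 of 18 settings.

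The receptor complex and its adaptors were mostly higher in R7-II. Of 40 genes 31 were higher and 3 lower, against 35.6% and 18% of all genes tested. The median was 0.38, and after median-of-ratios scaling 25 were higher and 4 lower. Dgka, a kinase that removes the second messenger diacylglycerol, was at 318, 268 and 301 TPM in R7-II compared with 89.6, 91.9 and 89.3 TPM in R7-III (1.70 ± 0.07). Txk, a Tec family kinase, and Sla2, an adaptor that lowers receptor levels, were higher by 1.46 ± 0.09 and 1.33 ± 0.08. Cd3g and Cd8b1, parts of the receptor complex and of the coreceptor, were higher by 0.45 ± 0.03 and 0.67 ± 0.04. Zap70 was at 447, 460 and 419 TPM against 407, 418 and 423 TPM and did not pass (0.09 ± 0.04, adjusted p = 0.050). The 3 lower genes included Ubash3b, a phosphatase that acts on receptor-proximal kinases (4.34, 5.59 and 3.09 TPM against 22.4, 23.8 and 23.9 TPM, -2.22 ± 0.15), and Ptpn6, which encodes the phosphatase SHP-1 (-0.42 ± 0.05).

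Among 37 transcription factors of T cell fate 13 were higher and 11 lower in R7-II, close to the 35.6% higher of all genes tested and above the 18% lower. Tbx21, which encodes T-bet, the factor of the effector programme, was at 3.38, 6.47 and 5.91 TPM in R7-II compared with 54.3, 52.7 and 42.1 TPM in R7-III (-3.05 ± 0.17). Tcf7 and Lef1, factors of naive and memory cells, were higher by 1.38 ± 0.08 and 1.05 ± 0.07, with Tcf7 at 514, 411 and 518 TPM against 180, 185 and 183 TPM. Klf2, which maintains quiescence and the circulation of naive cells, was at 119, 79.3 and 108 TPM against 9.06, 9.01 and 10 TPM (3.30 ± 0.12). Bcl6 (1.58 ± 0.13), Id2 (1.24 ± 0.05), Foxo1 (0.82 ± 0.07) and Id3 (0.67 ± 0.10) were also higher in R7-II, and Bhlhe40 was lower (-0.67 ± 0.07). Eomes was at 5.66, 5.51 and 12.8 TPM against 13, 12.5 and 10.6 TPM and did not pass (adjusted p = 0.045), but it passed without R7-II replicate 3, the highest of its clone (adjusted p = 0.00019). Myc differed by -0.13 ± 0.03, close to the shift between scalings, and lost its call after quantile normalization (adjusted p = 0.45) and in 7 other settings of 18. The number of lower factors fell to 7 without R7-II replicate 1 or R7-III replicate 1, to 6 without R7-II replicate 2 and to 5 without R7-III replicate 2.

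Quiescence genes formed the counterpart of the replication genes. Of 41 genes 35 were higher and 2 lower in R7-II, against 35.6% and 18% of all genes tested. The median was 0.77, and 17 were higher by more than 2-fold. Rasgrp2, Arl4c and Dapl1 of this list are among the most changed genes of activated R7-II cells that the authors reported from these data. R7-II had the highest clone mean in 36 of the 41, against 6730 of all 11330 genes. Rasgrp2, an activator of the small GTPase Rap1, was at 38.6, 22.6 and 30.7 TPM in R7-II compared with 1.92, 1.72 and 2.33 TPM in R7-III (3.38 ± 0.17). Pik3ip1, an inhibitor of PI3 kinase, was at 41, 26.1 and 36.7 TPM against 3.38, 2.99 and 3.36 TPM (3.04 ± 0.16). Tsc22d3, Txnip and Btg2, which restrain growth, were higher by 2.45 ± 0.15, 1.49 ± 0.08 and 1.02 ± 0.06. The 2 lower genes were Dapl1 (3.76, 6.07 and 6.03 TPM against 43, 43.4 and 40.3 TPM, -2.80 ± 0.16) and Arrdc4 (-0.87 ± 0.14). After median-of-ratios scaling 33 were higher and 5 lower.

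Genes of trafficking were higher in R7-II in 19 of 34 cases and lower in 7, or 11 after median-of-ratios scaling, against 35.6% higher and 18% lower of all genes tested. S1pr1, the receptor that lets lymphocytes leave lymph nodes, was at 47.6, 25.3 and 42.6 TPM in R7-II compared with 1.09, 1.58 and 1.66 TPM in R7-III (3.97 ± 0.21). Ccr9 and the integrin gene Itgb7, both part of homing to the gut, were higher by 2.66 ± 0.17 and 2.42 ± 0.08. Itgae, which encodes the integrin alpha chain CD103, was at 55.6, 41 and 61.3 TPM against 6.81, 7.66 and 6.94 TPM (2.70 ± 0.16). Itga4 (2.03 ± 0.16), Cxcr4 (2.07 ± 0.20) and Ccr7 (0.78 ± 0.07) were also higher. Lower in R7-II were Cd44, a receptor of activated cells (61.4, 93.8 and 78 TPM against 194, 198 and 198 TPM, -1.35 ± 0.11), Cxcr3 (3.71, 2.48 and 2.58 TPM against 8.05, 8.93 and 8.72 TPM, -1.30 ± 0.11) and Ccr8 (-1.02 ± 0.14). Replicate 2 of R7-II was the lowest of its clone in Klf2, S1pr1, Rasgrp2, Pik3ip1, Ccr9 and Itgae, and also in the B cell gene Cd79a, at 8.11 TPM against 19.2 and 16.3 TPM in the other R7-II libraries and 1.02 to 1.74 TPM in R7-III. B cells express several of these genes, and the part of B cells in these differences was not tested.

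Receptors for cytokines were higher in R7-II in 19 of 32 cases and lower in 3, against 35.6% and 18% of all genes tested. With median-of-ratios scaling 17 were higher and 6 lower. Il7r, the receptor chain for the survival factor IL-7, was at 5.37, 2.7 and 7.85 TPM in R7-II against 0.72, 1.29 and 1.02 TPM in R7-III (1.57 ± 0.27). Socs3, a feedback inhibitor, and Il17ra were higher by 2.61 ± 0.17 and 1.31 ± 0.08. The 3 lower genes were both chains of the IL-12 receptor, Il12rb2 (7.46, 10.8 and 8 TPM against 34.6, 36.8 and 23.5 TPM, -1.73 ± 0.16) and Il12rb1 (-1.15 ± 0.11), and Il15ra (-1.13 ± 0.12). Il2ra, listed with the signal reporters, was also lower (-0.46 ± 0.04).

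Inhibitory and costimulatory receptors were split, with 13 of 25 higher and 6 lower in R7-II, against 35.6% and 18% of all genes tested. Ctla4 was at 61.5, 60.3 and 66.1 TPM in R7-II compared with 12.9, 12.1 and 15.2 TPM in R7-III (2.15 ± 0.10). Cd7 (3.55 ± 0.18), Slamf6 (2.55 ± 0.16), Tnfrsf14 (1.66 ± 0.12), Icos (1.19 ± 0.05) and Cd27 (0.50 ± 0.04) were higher as well. Tigit was lower, at 18.5, 18.4 and 14.1 TPM against 42.9, 43.1 and 38.8 TPM (-1.25 ± 0.09), as were Pdcd1, for PD-1 (-0.52 ± 0.06), and Lag3 (-0.49 ± 0.08). Inhibitory receptors were thus found in both directions.

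Growth and metabolic genes differed little but in 1 direction. Of 45 genes 28 were lower in R7-II and none was higher, against 18% and 35.6% of all genes tested. The median was -0.23, and none differed by more than 2-fold. After median-of-ratios scaling 41 were lower. Ldha and Hk2, enzymes of glycolysis, were lower by -0.65 ± 0.04 and -0.73 ± 0.05, Tpi1 by -0.83 ± 0.04 and the polyamine enzyme gene Srm by -0.64 ± 0.03. Npm1, a nucleolar protein gene, was at 4956, 5054 and 5030 TPM against 6077, 6013 and 6201 TPM (-0.28 ± 0.02).

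Interferon-stimulated genes varied between the libraries of R7-II itself. Of 45 genes 11 were higher and 6 lower in R7-II, against 35.6% higher and 18% lower of all genes tested. Libraries of R7-II and R7-III overlapped in 26 of the 45, against 3326 of all 11330 genes. Without R7-II replicate 1 the higher genes numbered 19, and without R7-III replicate 1 or 3 the lower genes numbered 2. Ifit3 was at 2.9, 15.2 and 26.6 TPM in R7-II against 1.86, 1.41 and 1.91 TPM in R7-III, and lost its call in 9 of 18 settings, with adjusted p up to 0.028. Gbp2b was at 39.1, 0.04 and 0.04 TPM in R7-II, at 80, 79.2 and 81.2 TPM in R7-III and 64.5, 64.3 and 71.3 TPM in R7-I, so that R7-II replicates 2 and 3 were close to 0 and replicate 1 lay between. It lost its call in 8 of 18 settings, and its neighbour and relative Gbp2 had the other direction (130, 220 and 197 TPM against 85.2, 94.2 and 87.9 TPM, 0.99 ± 0.15). Gbp8 was higher in all R7-II libraries (2.30 ± 0.13) and Iigp1 lower (-1.55 ± 0.16).

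Most of what differed between R7-II and R7-III also differed between R7-II and R7-I. These comparisons share the R7-II libraries. Of the 6077 genes past the threshold against R7-III, 5070 (83.4%) also passed against R7-I in the same direction, 27 (0.444%) passed in the opposite direction, and 980 (16.1% of these genes and 8.65% of all genes tested) did not pass against R7-I. Of the 980, 417 were higher and 563 lower in R7-II than in R7-III. A missed threshold does not show that R7-II and R7-I had the same level, and 521 of the 980 had an unadjusted p under 0.05 against R7-I. Membership also depended strongly on scaling, since 334 of the 980 were among the 1031 genes found after median-of-ratios scaling and 268 among the 1061 found after quantile normalization. A second class, defined by R7-III and not by a missed threshold, was set beside it.

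This second class, called parted in R7-III, holds the genes in which R7-III passed against both R7-II and R7-I in the same direction and the 95% interval of R7-II minus R7-I lay within 1.5-fold. In 249 genes (2.2% of those tested) R7-III was higher than both other clones and in 47 (0.415%) lower. It is not a part of the 980 genes, since a small difference between R7-II and R7-I could still pass. Of the 296 genes, 204 did not pass between R7-II and R7-I, 82 passed with R7-II on the far side of R7-I from R7-III, and 10 passed with R7-II between R7-III and R7-I. Most differences from R7-III were small, since 21 of the higher and 2 of the lower genes exceeded 2-fold between R7-II and R7-III. The 249 higher genes became 116, 164 and 161 without R7-I replicate 1, 2 or 3 and 131, 132 and 130 without R7-III replicate 1, 2 or 3, and the 47 lower genes became 22, 22 and 25 and 20, 25 and 27 in the same fits. Of all 296, 167 were found after median-of-ratios scaling, 139 after quantile normalization and 116 after both, and 74 were found in these fits and in every fit that left out 1 library. The genes described next come from these 74 unless a limit is given, and several were picked for their roles or sizes after their values were seen.

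**Figure D4:**
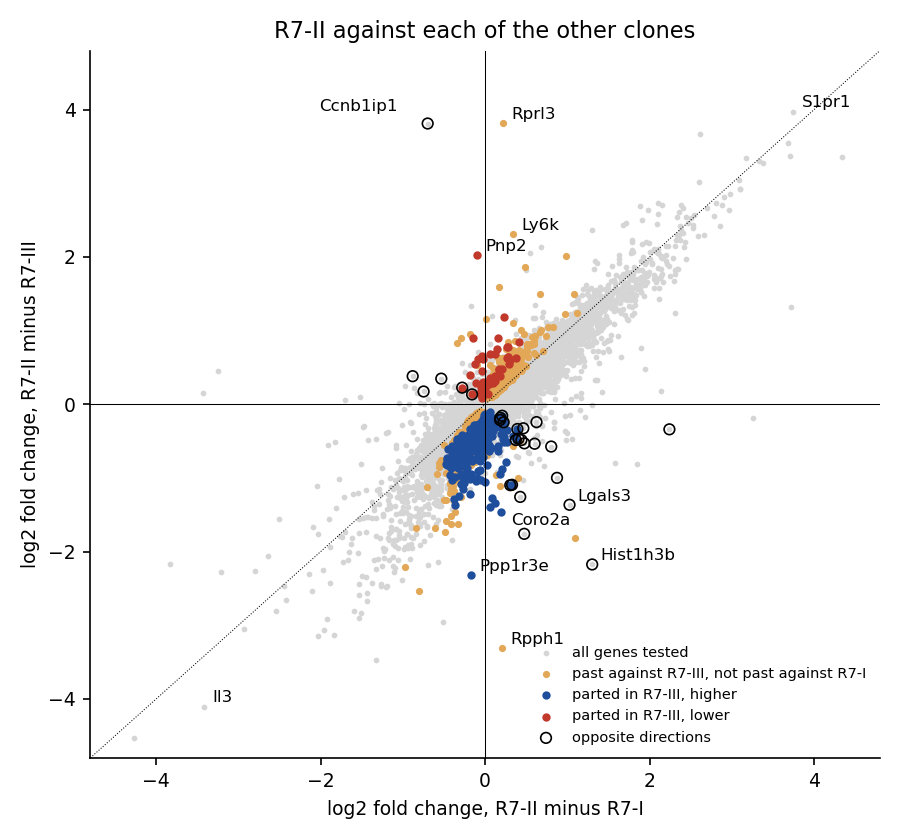
Log2 fold change of R7-II minus R7-III (vertical axis) against that of R7-II minus R7-I (horizontal axis) for the 11330 genes tested, which share the R7-II libraries. Genes parted in R7-III lie near the vertical line at 0 (249 blue, higher in R7-III, and 47 red, lower in R7-III), and circles mark the 27 genes past the threshold in opposite directions.

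Replication genes were the largest listed group of this class. It held 16 replication genes, 8 mitosis genes, 4 of nucleotide synthesis and 3 each of G1 control and growth, all but Impdh1 higher in R7-III, while 256 of the 296 genes were on none of the lists. Of the 16 replication genes 12 were also lower in R7-II than in R7-I, by less than 1.5-fold, so that their order was R7-III above R7-I above R7-II, and 4 did not pass (Dnmt1, Rpa1, Rfc1 and Rfc2). Of the 116 genes found under both other scalings, 7 were replication genes and 3 mitosis genes, and most were on no list. Dnmt1, the maintenance DNA methyltransferase, was at 104, 112 and 110 TPM in R7-II, at 113, 119 and 116 TPM in R7-I and 171, 169 and 180 TPM in R7-III. R7-III stood above both without overlap (0.67 over R7-II and 0.58 over R7-I), and the 95% interval of R7-II minus R7-I ran from -0.17 to -0.00. Rpa1, which coats single-stranded DNA, was at 101.3, 104 and 105 TPM in R7-II, at 104, 110 and 109 TPM in R7-I and 137, 138 and 142 TPM in R7-III. Its interval of R7-II minus R7-I ran from -0.13 to 0.02. After median-of-ratios scaling R7-II was lower than R7-I in both genes, by -0.26 for Dnmt1 and -0.23 for Rpa1 (limma adjusted p = 0.00046 and 0.0002). Mcm6, Pola2, Pole2, Rfc1 and Rfc2 were the other replication genes that remained under both scalings, with R7-III above R7-II by 0.47 to 0.72. After median-of-ratios scaling each passed as lower in R7-II than in R7-I, by -0.37, -0.43, -0.36, -0.30 and -0.31 in this order. R7-III was then higher than R7-I by 0.31, 0.37, 0.47, 0.29 and 0.35, so these genes were graded across the clones. The mismatch repair gene Msh6 (-0.34 ± 0.03), the chromatin gene Hmgb2 (-0.94 ± 0.05) and the S phase kinase gene Cdk2 (-0.60 ± 0.04) were found in this class too. They also passed as lower in R7-II than in R7-I after median-of-ratios scaling, by -0.21, -0.41 and -0.43 in this order. R7-III was then above R7-I by 0.25, 0.66 and 0.30, so these genes were graded as well. Of the mitosis genes, Incenp (-0.53 ± 0.06), Racgap1 (-0.35 ± 0.05) and Ncapd2 (-0.76 ± 0.11) remained under both scalings. After median-of-ratios scaling Incenp passed as lower in R7-II than in R7-I (-0.26), while Racgap1 and Ncapd2 did not pass (-0.11 and -0.23).

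Outside the cell cycle the genes set apart in R7-III had varied roles. Bcl2l2, which encodes the survival factor BCL-W, was at 2.49, 2.18 and 2.23 TPM in R7-II, at 2.04, 1.9 and 2.15 TPM in R7-I and 8.17, 6.57 and 7.44 TPM in R7-III. R7-III exceeded both without overlap (1.34 ± 0.10 over R7-II and 1.47 ± 0.10 over R7-I, adjusted p = 8.8e-07 and 9.2e-06), and the interval of R7-II minus R7-I ran from -0.09 to 0.34. Coro2a, an actin-binding coronin, was low in both other clones, at 0.2, 0.16 and 0.3 TPM in R7-II, at 0.09, 0.05 and 0.06 TPM in R7-I and 2.59, 2.41 and 2.11 TPM in R7-III. Fabp5, which carries fatty acids, was at 149, 167 and 174 TPM in R7-II, at 168, 173 and 159 TPM in R7-I and 274, 272 and 258 TPM in R7-III. Its interval of R7-II minus R7-I ran from -0.15 to 0.09, and after median-of-ratios scaling the difference was -0.21 (limma adjusted p = 0.021). Eno3, a form of the glycolytic enzyme enolase, was at 25.2, 24.2 and 24.7 TPM in R7-II, at 21.3, 27.8 and 28 TPM in R7-I and 53.1, 54 and 47.4 TPM in R7-III. Ptpn6, named above for its role at the receptor, was at 245, 267 and 228 TPM, 257, 268 and 256 TPM and 340, 322 and 325 TPM in the same order, and after median-of-ratios scaling R7-II was lower than R7-I (-0.26, adjusted p = 0.0035). Gnas, for the stimulatory G protein alpha subunit, and Nrgn, for neurogranin, belonged to the same class (-0.39 ± 0.04 and -0.95 ± 0.13). After median-of-ratios scaling Gnas passed as lower in R7-II than in R7-I (-0.27), with R7-III above R7-I by 0.25. Nrgn did not pass between R7-II and R7-I (0.10). Glo1, which detoxifies methylglyoxal, was at 119, 138 and 118 TPM, 114, 111 and 99 TPM and 283, 213 and 204 TPM, with R7-III replicate 1 the highest. Glo1 and Btbd9 are neighbours (chr17:30592861-30612659 and chr17:30215524-30582621, mm10). Btbd9 was also highest in R7-III, at 29, 26.5 and 28 TPM against 21.7, 17.6 and 19.8 TPM in R7-II and 15.4, 14.6 and 14.8 TPM in R7-I. In Btbd9 R7-II held the middle place, above R7-I without overlap (0.37, limma adjusted p = 0.00086). That difference missed the threshold after median-of-ratios scaling (0.21, limma adjusted p = 0.013).

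Fewer genes were lowest in R7-III. Arhgap9, a GTPase-activating protein gene of blood cells, was at 73.2, 61.2 and 68.3 TPM in R7-II, at 54.8, 57.5 and 59.4 TPM in R7-I and 30.5, 28.5 and 28 TPM in R7-III (1.19 ± 0.06). R7-II also passed above R7-I in this gene (0.23, limma adjusted p = 0.0074), but not after median-of-ratios scaling (0.06, limma adjusted p = 0.36). Tfe3, a transcription factor of lysosomal genes, was at 65.6, 57.2 and 48.4 TPM, 59.5, 61 and 64.4 TPM and 37.2, 37.2 and 40.6 TPM (0.55 ± 0.09). Errfi1, a feedback inhibitor of EGF receptor family signalling, and Hdgfrp3 were lowest in R7-III, below R7-II by 0.69 ± 0.07 and 0.65 ± 0.09. Their intervals of R7-II minus R7-I ran from -0.04 to 0.29 and from -0.23 to 0.16.

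**Figure D5:**
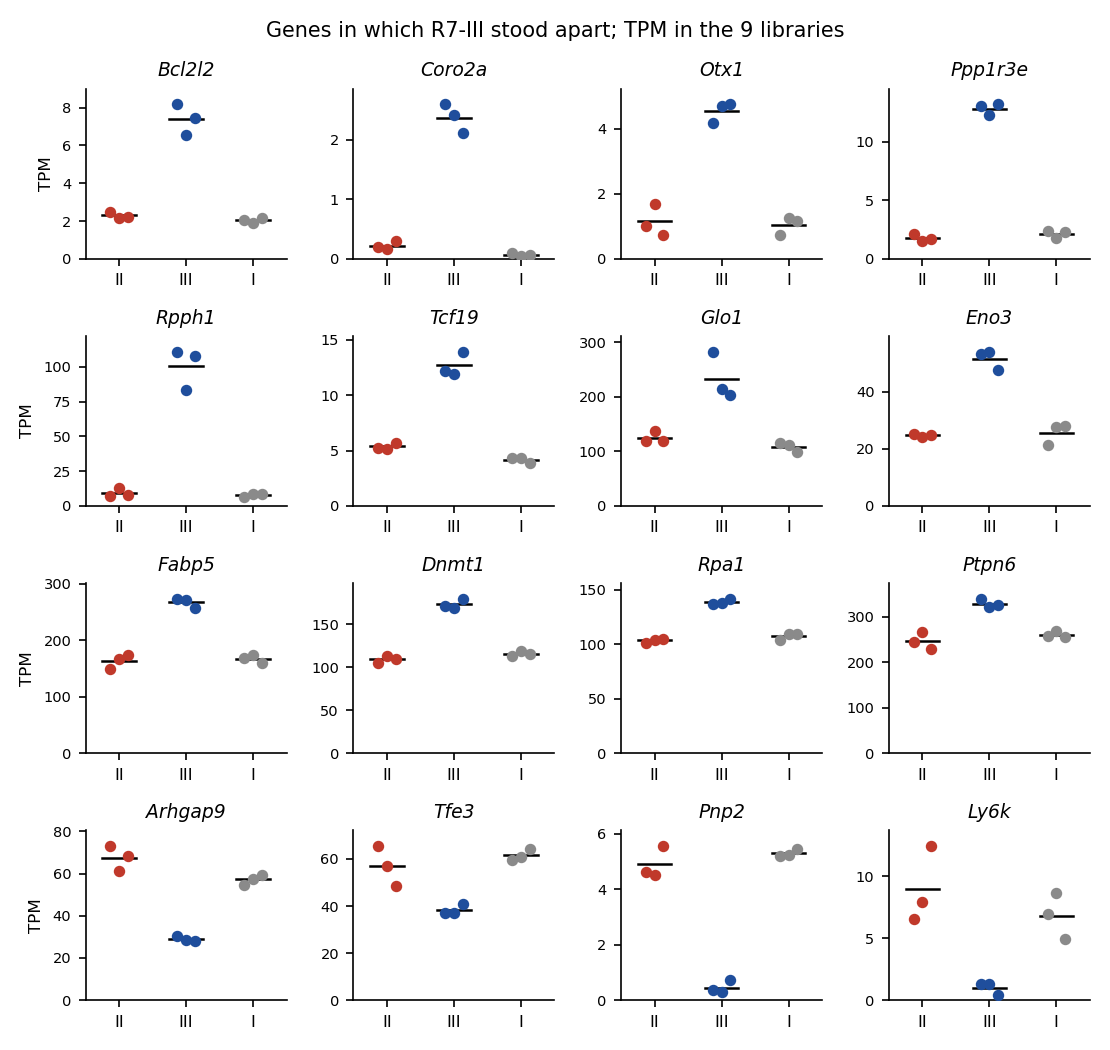
TPM (vertical axis, from 0) of 16 genes in the 3 libraries of R7-II (red), R7-III (blue) and R7-I (grey), with the clone mean as a bar. In each gene the R7-III libraries lay apart from the other 6, above them in the first 12 genes and below them in Arhgap9, Tfe3, Pnp2 and Ly6k.

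Of the 980 genes, 60 (0.53% of those tested) also differed by more than 2-fold between R7-II and R7-III, 16 higher and 44 lower in R7-II. Histone genes made up 12 of the 60, 1 G1 control gene was E2f8 (0.13, 0.17 and 0.28 TPM against 2.6, 2.06 and 3.13 TPM), and 42 were on no list. Under median-of-ratios scaling and quantile normalization 29 of the 60 remained, 11 of them histone genes, and 10 remained also with each library left out. These 10 were Bcl2l2, Coro2a, Otx1, Mlf1, Ccl27a, Rpph1 and the histone genes Hist1h2ai and Hist1h2bl, all higher in R7-III, and Ly6k and Gcm1, lower in R7-III. Otx1, a homeobox factor gene, was at 1.02, 1.7 and 0.73 TPM in R7-II, 1.05 ± 0.28 TPM (SD, n = 3) in R7-I and 4.17, 4.71 and 4.75 TPM in R7-III. The 95% interval of R7-II minus R7-I ran from -0.31 to 0.42. Ly6k, of the Ly6 family of surface proteins, was at 6.54, 7.93 and 12.4 TPM, 6.93, 8.65 and 4.9 TPM and 1.28, 1.33 and 0.38 TPM, with a wide interval of -0.24 to 0.91. Gcm1 was at 1.88, 1.54 and 3.69 TPM, 1.7, 1.92 and 2.09 TPM and 0.04, 0.05 and 0.14 TPM.

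Some genes of the 60 were set apart by their size but not under every setting. Csf1, which encodes macrophage colony-stimulating factor, was at 0.63, 1 and 0.73 TPM in R7-II, at 1.18, 1.55 and 1 TPM in R7-I and 4.18, 4.83 and 4.46 TPM in R7-III. R7-II was lower than R7-III by -1.62 ± 0.13, and its interval against R7-I, from -0.60 to -0.05, lay below 0. Tk1, the thymidine kinase of S phase, was at 5.19, 7.41 and 5.32 TPM, 6.27, 8.8 and 9.97 TPM and 20.1, 21.2 and 19.9 TPM, with an interval against R7-I from -0.75 to -0.08. Cd40lg, the ligand of CD40, was at 1.28, 2.38 and 2.87 TPM in R7-II compared with 5.13, 4.28 and 6.83 TPM in R7-III, but the difference between R7-III and R7-I missed the threshold (adjusted p = 0.016). For such genes the position of R7-II relative to R7-I is less certain than for Bcl2l2.

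Several of the largest single differences lay near the locus of the T cell receptor alpha chain, which is rearranged differently in each line (chr14:52427928-54224206, mm10). Within 5 Mb of that locus 103 genes were tested and 8 (7.77%) were in the class set apart in R7-III, against 2.57% of the other genes, and none of 27 genes near the beta locus (chr6:40891229-41558452) was. The 8 were Ppp1r3e, Bcl2l2, Haus4, Pnp, Tinf2 and Tm9sf1, higher in R7-III, and Mettl17 and Pnp2, lower. Of these, 4 (Bcl2l2, Pnp, Tm9sf1 and Mettl17) were in the class under both other scalings and with each library left out, whereas Ppp1r3e and Pnp2 left it after quantile normalization and Haus4 and Tinf2 under both scalings and without some libraries. Ppp1r3e, a regulatory subunit gene of protein phosphatase 1 (chr14:54875597-54877538), was at 2.14, 1.54 and 1.68 TPM in R7-II, at 2.38, 1.8 and 2.25 TPM in R7-I and 13, 12.3 and 13.2 TPM in R7-III (-2.32 ± 0.11). Its neighbour Bcl2l2 (chr14:54883366-54890858) was described above. Pnp2 (chr14:50956141-50964751) was at 4.62, 4.5 and 5.56 TPM, 5.19, 5.22 and 5.45 TPM and 0.35, 0.28 and 0.73 TPM. Its neighbour Pnp (chr14:50944303-50953412), which encodes the same purine-salvage enzyme, had the other direction, at 39.8, 41.9 and 39.2 TPM, 45.8, 49.2 and 45.8 TPM and 57.2, 58.4 and 59.4 TPM. Because Pnp and Pnp2 are alike in sequence, reads could be divided between them, and their values are uncertain. Affinity, self-reactivity and the genome region carried by each line cannot be told apart here.

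The RNA component of RNase P showed a related pattern. Rpph1 (chr14:50807447-50807771) was at 7.29, 12.8 and 8.18 TPM in R7-II, at 6.49, 8.78 and 8.33 TPM in R7-I and 111, 83.3 and 108 TPM in R7-III (-3.31 ± 0.18), and its relative Rprl3 on chromosome 8 was at 18, 17.6 and 6.91 TPM, 11, 11.2 and 11.2 TPM and 0 in all 3 R7-III libraries. Reads may be divided between these similar genes, which also lack a poly(A) tail, so both values are uncertain. The adjacent gene Ccnb1ip1 (chr14:50789249-50795728), which encodes a ubiquitin ligase for cyclin B, was near 0 in R7-III (0.05, 0 and 0.19 TPM) and at 14.1, 14.3 and 14 TPM in R7-II compared with 24.9, 22.3 and 23.6 TPM in R7-I.

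Ccnb1ip1 was 1 of the 27 genes (0.238% of those tested) that passed in opposite directions, so that R7-II held the middle place. There were 17 such genes in the fit without replicate 1 of R7-I and in that without replicate 1 of R7-III. Of the 27, 11 were found after median-of-ratios scaling, 11 after quantile normalization and 8 after both, and 7 were found in these fits and in every fit with 1 library left out. The 7 were Ccnb1ip1, Scnm1, Cox18, Lgals3, Rasl11b, Mfap1b and Hist1h3b. Lgals3, which encodes the lectin galectin-3, was at 3.26, 3.32 and 5.54 TPM in R7-II, at 14.2, 10.5 and 10.8 TPM in R7-III and 1.5, 1.18 and 1.61 TPM in R7-I. The clones did not overlap, and R7-II differed from R7-III by -1.36 ± 0.17 and from R7-I by 1.03. Cox18, a mitochondrial assembly factor gene, was at 33.9, 34.6 and 33.8 TPM, 39.5, 42.1 and 39.9 TPM and 22.7, 21.3 and 21.3 TPM in the same order of clones. Tox, a factor of chronically stimulated T cells, had the same order (11.1, 11.2 and 10.5 TPM, 13.3, 14.9 and 14 TPM and 7.87, 7.55 and 8.85 TPM) and lost its call against R7-III without R7-III replicate 2 (adjusted p = 0.011). It left the 27 genes under both other scalings, with R7-II against R7-I at an adjusted p of 0.012 after median-of-ratios scaling. In the main fit and under both other scalings it was also among the genes parted in R7-III. Kit, the receptor for stem cell factor, was at 1.53, 1.71 and 1.71 TPM in R7-II, at 5.41, 5.48 and 5.11 TPM in R7-III and 0.95, 0.94 and 1.02 TPM in R7-I. Kit left the 27 genes after quantile normalization.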

How the data were processed

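RNA of peptide-activated, sorted CD8 T cells was measured in 9 libraries, 3 per clone, with a poly(A)-selecting, non-strand-specific kit. The authors estimated gene levels with RSEM 1.2.11 on RefSeq genes of mm10 and deposited TPM values per gene symbol, to 2 decimals. The sources used here do not give the aligner. Counts, which the authors tested with DESeq2 1.8.1, were not used here, so limma took the place of a count test. Depth cannot be read from TPM, and therefore no counting interval is given. Without strand, overlapping and antisense genes cannot be told apart.

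From the deposited TPM values, log2(TPM + 1) was computed for genes with a maximum TPM above 1 and fitted with limma 3.58.1 (trended eBayes moderation, R 4.3.3), with all 9 libraries in 1 fit, 3 comparisons, Benjamini-Hochberg adjustment and a threshold of 0.01. Tables and figures used Python 3.11.15. Counts of list members are descriptions, with no set test. Positions are from the RefSeq annotation of GRCm38, the build named mm10, and 99.5% of the genes tested had one.

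The genes named were the 12 largest changes in each direction whose libraries did not overlap, the 12 largest in each direction among genes parted in R7-III with a maximum TPM of at least 5, the 2 most abundant and the 3 most changed members of each list in each direction, Klf2, S1pr1, Ctla4, Cxcr3, Cd5 and Nr4a1, and parted genes in a list or within 5 Mb of a receptor locus. To these 201 genes were added, after their values were seen, the 60 and the 27 genes of the 2 classes described and 40 for their roles, 310 in all. The comparison, members and lists were chosen with earlier results of these data known. Alternatives were other pseudocounts, filters, scalings, moderation, thresholds and bounds, a fit of only both clones, the replicate number as a block, and each library left out.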

Additional observations from a re-analysis of the deposited data

How the results depend on the processing

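After median-of-ratios scaling 3150 genes were lower in R7-II than in R7-III, 83 were parted and lower in R7-III, and of the 6046 genes past the threshold 4935 were among the 6077; after quantile normalization 139 genes were parted and higher and 78 parted and lower in R7-III. With a pseudocount of 0.1, 852 genes were over 2-fold higher in R7-II, with a pseudocount of 5, 229 were over 2-fold higher and 151 over 2-fold lower, and with a mean TPM of at least 5, 328 and 205. At an adjusted p of 0.05, 544 genes were parted and higher and 153 parted and lower in R7-III, and with the narrower bound on R7-II minus R7-I 141 and 29. With 1 library left out, between 3348 and 4142 genes were higher and 1765 to 1992 lower, 503 to 630 over 2-fold higher and 298 to 338 over 2-fold lower, 707 to 1299 past against R7-III and not against R7-I, 116 to 273 parted and higher, and 20 to 62 parted and lower. None of these counts can be set against a known depth, which TPM does not keep.

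Equal replicate numbers did not mark paired libraries in the labels, and the deviations of R7-II and R7-III libraries numbered 1, 2 and 3 from their clone means correlated with r of -0.04, -0.03 and 0.03. With the replicate block 3838 genes were higher and 1948 lower in R7-II, 544 and 319 over 2-fold, 978 past against R7-III and not against R7-I, 200 parted and higher and 35 parted and lower. Over the single genes named and their settings, 5253 results were counted as unchanged, 239 lost the call and 11 gained it. No gene past the threshold in the main fit changed direction. For genes not past it a change of direction was counted as unchanged. Zap70, for example, was higher in R7-II in the main fit and at -0.04 after median-of-ratios scaling.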
